A study of Homo sapiens with 24 samples.

Results

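DKK1 and 8 other regulators of the Wnt pathway were followed across 24 arrays of sorted human breast cancer cells. The 9 genes (DKK1, DKK3, AXIN2, SFRP1, WNT5A, WNT5B, LGR5, FZD7 and LRP6) were taken as a named list out of 22395 genes measured, and each was read from its only probe set that names that symbol alone. The list was chosen by its proposers with earlier results of these arrays known, so the p-values given for DKK1 describe a gene already picked out and are no independent support for it.

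SUM159 cells are triple-negative and mesenchymal, whereas T47D cells are luminal and express the oestrogen receptor. Each line received the small molecule ID8 at 5 µM or its vehicle DMSO for 72 h, and live cells were then sorted by the Aldefluor reagent, which turns fluorescent where aldehyde dehydrogenase is active. The 8 groups were therefore SUM159 or T47D, with DMSO or ID8, in the Aldefluor+ or the Aldefluor- fraction, with 3 arrays each. Every group held 1 array from each of 3 separate experiments, numbered 2, 3 and 4 for SUM159 and 5, 6 and 7 for T47D. Each treatment of an experiment was a pool of 3 flasks, and the Aldefluor gate was set on cells that also received the inhibitor DEAB. All cells of an experiment passed through staining and sorting, so no group stands for unsorted cells.

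In canonical Wnt signalling, secreted Wnt proteins bind a Frizzled receptor together with the co-receptor LRP5 or LRP6, which stops the degradation of beta-catenin and lets it act with TCF and LEF factors on target genes. DKK1 is a secreted antagonist that binds LRP5 and LRP6, and it is itself a known target gene of beta-catenin, as are AXIN2 and LGR5. SFRP1 binds Wnt proteins outside the cell, WNT5A and WNT5B are ligands known mainly for signalling without beta-catenin, and LGR5 is a receptor for R-spondins, which raise the number of Frizzled receptors at the surface. In breast cancer DKK1 is known as a secreted factor of tumours without hormone receptors.

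The DKK1 sequence before its transcription start is shown because DKK1 was the only listed gene that passed the test in any comparison below. It covers the 250 bases before the start in the RefSeq promoter table (GRCh38.p14, chr10:52314031-52314280, plus strand), and capitals mark matches to the TCF/LEF core.
DKK1: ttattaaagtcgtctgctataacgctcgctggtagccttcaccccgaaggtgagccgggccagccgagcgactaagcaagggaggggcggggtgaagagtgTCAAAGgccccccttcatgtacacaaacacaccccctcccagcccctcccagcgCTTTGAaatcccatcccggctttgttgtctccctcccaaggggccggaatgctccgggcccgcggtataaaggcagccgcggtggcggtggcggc
In all, 4 motifs were searched on both strands. The TCF/LEF core CTTTGA (reverse TCAAAG) matched at 2 places, the TEAD motif GGAATG (reverse CATTCC) at 1 place, and the AP-1 motif TGACTCA (reverse TGAGTCA) and the short CRE motif TGACG (reverse CGTCA) at 0 places. Among 27305 promoters of the same length, 11.4% held the TCF/LEF core at least once and 1.02% at 2 or more places. The shares with at least 1 match were 11.9% for TEAD, 4.16% for AP-1 and 21.7% for the short CRE motif. The same table held WNT5A and WNT5B, so 3 of the 9 genes were matched. WNT5A had 0 matches to each of the 4 motifs and WNT5B had 1 match, to the short CRE motif. These matches describe letters in a window and do not show that a factor binds there.

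Values are log2 signals that the authors had already normalised and adjusted for batch. The adjustment was for experimental and processing batch, but the arrays of each batch and the covariates are not given. Each experiment held 1 line only, so experiment and line cannot be told apart. The effect of the adjustment on differences between the lines was not tested. Apart from the check of line markers, levels are therefore compared within a line only, and signals of different probe sets are not set against each other. The labels were set against known genes, and the fraction label was borne out by ALDH1A1 in SUM159 and not in T47D. ALDH1A1, an aldehyde dehydrogenase, was higher in Aldefluor+ cells of SUM159, by 2.91 ± 0.121 averaged over treatments (log2, SE; limma adjusted p = 1.27e-09), while in T47D its group means lay between 3.07 and 3.28 and the averaged difference was 0.09 ± 0.121 (adjusted p = 0.859). ALDH1A3, another aldehyde dehydrogenase, differed between T47D fractions by 0.07 ± 0.203 with DMSO and 0.78 ± 0.203 with ID8, and neither passed (adjusted p = 0.966 and 0.159). All 7 markers fixed for SUM159 and all 8 for T47D were higher in their own line, by at most 0.78 and 1.17 (log2). These sizes are those of the batch-adjusted values and need not be those of the cells. Of markers of other cells, 2 of 4 fibroblast, 3 of 4 leukocyte and 2 of 3 endothelial genes were measured, and none was called in the 8 comparisons. The summed level of the measured markers ranged over the groups from 3.23 to 4.19 for fibroblasts, 5.21 to 6.11 for leukocytes and 1.95 to 2.43 for endothelial cells. The interquartile range over genes was 2.88 for the SUM159 DMSO Aldefluor+ array of experiment 4 and 2.97 to 3.12 for the others.

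DKK1 had the widest spread of the 9 genes within each line. Its 4 group means ran from 2.17 to 3.62 in SUM159, a range larger than that of 99.7% of all genes, and from 2.07 to 3.44 in T47D, larger than that of 99.6%. The ranges were 1.45 and 1.37, beside medians over all genes of 0.30 and 0.31. Averaged over the 24 arrays, DKK1, DKK3, FZD7 and LRP6 had a signal of 2 or more, and AXIN2, SFRP1, WNT5A, WNT5B and LGR5 lay below 2, where signal over background is small. The lowest DKK1 group means of each line were close to that level, at 2.17 in SUM159 ID8 Aldefluor+ and 2.07 in T47D ID8 Aldefluor- cells. Whether low signal there altered the size of the DKK1 differences was not tested. Across all genes, 49.0% had a mean below 2.

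In SUM159, DKK1 was lower with ID8. In Aldefluor+ cells its signal was 3.40, 3.11 and 3.49 with DMSO (experiments 2, 3 and 4) and 2.12, 2.40 and 1.99 with ID8. Every ID8 array lay below every DMSO array, and the groups did not overlap for 18.7% of all genes. In such bulk samples, fewer cells that express a gene and less RNA per cell cannot be told apart. The difference was -1.16 ± 0.164 (log2, SE), or 2.24-fold, with a limma adjusted p of 0.00691 over all genes, against 0.241% of all genes called in this comparison. In Aldefluor- cells the signal was 3.52, 3.83 and 3.53 with DMSO and 2.70, 3.18 and 3.34 with ID8. These groups did not overlap either, as for 18.9% of all genes. The difference of -0.55 ± 0.164 did not pass (limma adjusted p = 0.281, with 0.277% of genes called). Averaged over the fractions, DKK1 fell by 0.86 on the log2 scale (SE 0.116, 1.81-fold, adjusted p = 0.00114), where 0.688% of genes were called. As neither pair of groups overlapped, all 6 pairs of arrays from the same experiment and fraction had the lower value with ID8. The ID8 effect in Aldefluor+ cells minus that in Aldefluor- cells was -0.61 ± 0.231 and did not pass (adjusted p = 0.637; 0.00447% of genes called), so the fractions were not shown to differ in their response. Without experiment 2, 3 and 4 in turn this value was -0.69, -0.88 and -0.26. The call in Aldefluor+ cells was lost without experiment 2 (-1.11, adjusted p = 0.161) and without experiment 4 (-0.99, adjusted p = 0.0783), and the averaged call held in each of 11 alternatives, with adjusted p up to 0.0428.

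In T47D, DKK1 was also lower with ID8 in every pair of arrays, but no test passed. In Aldefluor+ cells the signal was 3.60, 3.32 and 3.40 with DMSO (experiments 5, 6 and 7) and 2.93, 3.15 and 2.95 with ID8. The difference was -0.43 ± 0.164 (limma adjusted p = 0.345; 0.375% of genes called). In Aldefluor- cells the signal was 2.54, 2.32 and 2.59 with DMSO and 2.03, 2.09 and 2.09 with ID8, a difference of -0.41 ± 0.164 (adjusted p = 0.709; 0.0179% of genes called). The groups did not overlap in either fraction, as for 21.2% of all genes in Aldefluor+ and 16.5% in Aldefluor- cells. The averaged difference was -0.42 ± 0.116, with a 95% interval from -0.67 to -0.18 and an adjusted p of 0.143 (0.505% of genes called). It passed only in the fit without the replicate block, where adjusted p was 0.0398. The averaged ID8 effect in SUM159 minus that in T47D was -0.44 ± 0.164 (adjusted p = 0.315; 0.647% of genes called), so a difference between the lines in the response to ID8 was not shown.

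**Figure D1:**
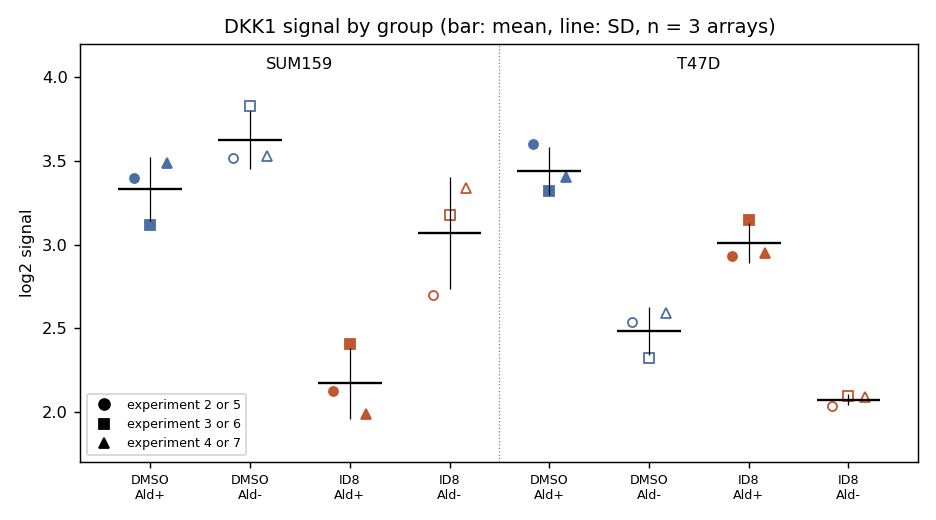
DKK1 log2 signal in each of the 24 arrays (vertical axis) by treatment and fraction (horizontal axis), SUM159 left and T47D right. Points are arrays with the marker giving the experiment, filled for Aldefluor+ and open for Aldefluor-, and bars and lines give the mean and SD of 3 arrays. ID8 groups sit below their DMSO groups in both lines, and the Aldefluor+ group sits below the Aldefluor- group in SUM159 and above it in T47D.

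The fractions differed in DKK1 in opposite directions in the 2 lines. In T47D the Aldefluor+ cells had more DKK1 signal, with group means of 3.44 ± 0.145 against 2.48 ± 0.143 with DMSO and 3.01 ± 0.119 against 2.07 ± 0.033 with ID8 (SD, n = 3). The differences were 0.96 ± 0.164 (log2, SE, limma adjusted p = 0.0222; 0.152% of genes called) and 0.94 ± 0.164 (adjusted p = 0.0141; 0.366% of genes called). Averaged over treatments, the difference was 0.95 ± 0.116, or 1.93-fold (adjusted p = 0.000351; 0.875% of genes called). The groups did not overlap with DMSO or with ID8, as for 19.1% and 19.5% of all genes. All 6 pairs from the same experiment and treatment therefore had the higher value in Aldefluor+ cells. Both single-treatment calls were lost when any 1 experiment was left out. Without experiment 5, 6 and 7 in turn, the DMSO values were 0.90, 0.94 and 1.03 (adjusted p = 0.395, 0.215 and 0.226), and the ID8 values were 0.96, 0.88 and 0.97 (adjusted p = 0.184, 0.205 and 0.186). The averaged call held in each of 10 alternatives, with adjusted p up to 0.0195.

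In SUM159 the Aldefluor+ cells had less DKK1 signal. The group means were 3.33 ± 0.194 against 3.62 ± 0.174 with DMSO and 2.17 ± 0.212 against 3.07 ± 0.335 with ID8 (SD, n = 3). With DMSO the difference of -0.29 ± 0.164 did not pass (limma adjusted p = 0.698; 0.0223% of genes called) and was -0.08 without experiment 3, and with ID8 that of -0.90 ± 0.164 did (adjusted p = 0.0437; 0.201% of genes called). The average of -0.60 ± 0.116 passed narrowly (adjusted p = 0.0454; 0.219% of genes called). Both calls were lost when any 1 experiment was left out, in fits where fewer genes were called in 8 or 9 of 9 contrasts. Without experiment 2, 3 and 4 in turn, the ID8 values were -1.06, -0.96 and -0.67 (adjusted p = 0.133, 0.204 and 0.345), and the averages were -0.72, -0.52 and -0.55 (adjusted p = 0.126, 0.342 and 0.316). Leaving out only the SUM159 DMSO Aldefluor+ array of experiment 4 also ended them, at -0.90 (adjusted p = 0.0500136) and -0.64 (adjusted p = 0.0758).

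The test of the difference between the lines did not rest on 1 experiment. The averaged Aldefluor difference in SUM159 minus that in T47D was -1.54 ± 0.164 for DKK1 (log2, SE, limma adjusted p = 0.000139; 0.478% of genes called), and it was called in each of 13 alternatives, with adjusted p up to 0.00617. RNA per collected cell also differed between the fractions. With DMSO it averaged 12.9 pg in Aldefluor+ and 10.6 pg in Aldefluor- cells of SUM159, and 19.3 and 13.8 pg in T47D. With ID8 it averaged 14.3 pg in Aldefluor+ and 12.7 pg in Aldefluor- cells of SUM159, and 17.3 and 11.8 pg in T47D. The part of RNA per cell in the DKK1 differences was not tested.

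No call was made for the other antagonists. DKK3, a secreted relative of DKK1 whose place in Wnt signalling is less settled, had group means from 1.89 to 2.41. With ID8 it differed by -0.14 ± 0.188 in SUM159 and -0.22 ± 0.188 in T47D, and between fractions by 0.10 ± 0.188 and 0.28 ± 0.188 (averaged log2 differences, SE). SFRP1 had group means from 1.43 to 1.94, with averaged ID8 differences of 0.09 ± 0.206 in SUM159 and -0.40 ± 0.206 in T47D. None of these passed (limma adjusted p from 0.519 for SFRP1 with ID8 in T47D upward).

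The ligands WNT5A and WNT5B stayed at low signal. WNT5B was the flattest of the 9 genes in each line, with group means from 1.36 to 1.50 in SUM159 and from 1.35 to 1.44 in T47D, and its 4 averaged differences lay between -0.05 and 0.07. Within SUM159, WNT5A had its highest mean in ID8 Aldefluor- cells, at 1.83, 2.11 and 1.71, against 1.35, 1.62 and 1.32 in the matching Aldefluor+ cells. These groups did not overlap, as for 17.0% of all genes, and WNT5A was not called there or in any other comparison.

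Among the receptors, LRP6, the co-receptor that DKK1 binds, had group means from 4.61 to 4.94. Its averaged ID8 differences were -0.12 ± 0.138 in SUM159 and -0.17 ± 0.138 in T47D, with 95% intervals from -0.41 to 0.17 and from -0.46 to 0.12. FZD7, a Frizzled receptor, had group means from 3.55 to 4.18. Its SUM159 DMSO Aldefluor- arrays, at 4.04, 4.12 and 4.39, lay above all arrays of the other SUM159 groups, but only just. The nearest was the ID8 Aldefluor- array of experiment 2, at 4.03. The averaged ID8 difference of FZD7 in SUM159 was -0.36 ± 0.199 (limma adjusted p = 0.538). LGR5 had signals of 1.46, 1.40 and 1.31 in SUM159 DMSO Aldefluor- cells and 1.38, 1.34 and 1.33 in T47D ID8 Aldefluor- cells. Each of these LGR5 groups lay above the other 3 groups of its line, within a range of low signal. The averaged LGR5 fraction difference in T47D of -0.20 ± 0.080 did not pass (limma adjusted p = 0.355). For neither FZD7 nor LGR5 was the share of all genes with such a group counted.

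AXIN2, a scaffold of the beta-catenin destruction complex and a widely used readout of beta-catenin activity, was not called in any comparison. In T47D Aldefluor- cells its signal was 0.80, 0.92 and 0.97 with DMSO and 1.42, 1.38 and 1.69 with ID8, all below 2, where signal over background is small. These groups did not overlap, as for 16.5% of all genes. Its averaged ID8 difference was 0.43 ± 0.160 in T47D and -0.23 ± 0.160 in SUM159 (log2, SE), and neither passed (limma adjusted p = 0.317 and 0.664).

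**Figure D2:**
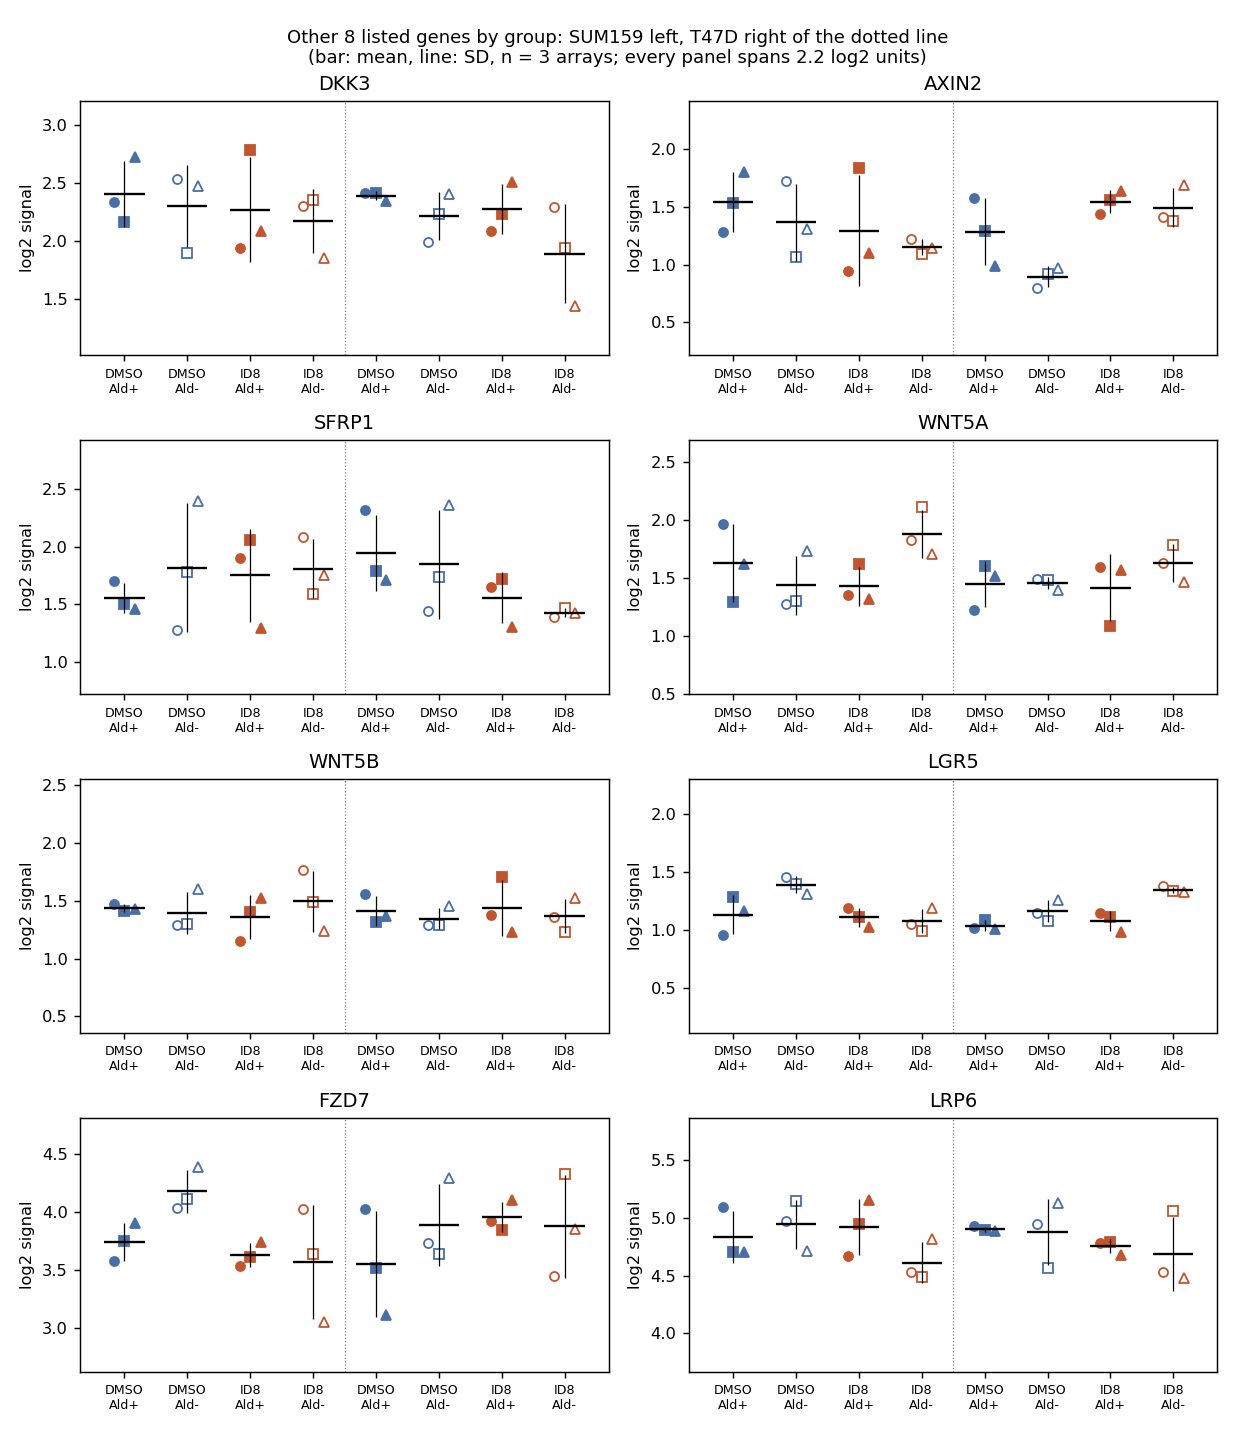
Log2 signal of the 8 other listed genes in each array (vertical axis, every panel spanning the same width) by treatment and fraction (horizontal axis), SUM159 left and T47D right of the dotted line. Points are arrays, filled for Aldefluor+ and open for Aldefluor-, and bars and lines give the mean and SD of 3 arrays. Group means of WNT5B stay between 1.35 and 1.50, and FZD7 ranges from 3.55 to 4.18.

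Apart from DKK1, 0 of the other 8 genes were called by limma in the 8 comparisons or the 4 averages. The share of all genes called there ran from 0.0179% to 0.875%, so 0 calls among 8 genes are near the background. At an unadjusted p under 0.05, between 0 and 3 of the 8 passed in a comparison, the 3 being for ID8 in SUM159 Aldefluor- cells, where 8.03% of all genes did. Over the 12 comparisons that share of all genes ran from 6.60% to 11.3%. Over the 12 comparisons, their 95% intervals reached from -1.20 to 1.08, so differences of up to about the size seen for DKK1 are within the error for some of them. The arrays of the compared groups did not overlap for 1, 3, 2 and 3 of the 9 genes with ID8 (SUM159 Aldefluor+, SUM159 Aldefluor-, T47D Aldefluor+ and T47D Aldefluor-), against 18.7%, 18.9%, 21.2% and 16.5% of all genes. Between fractions these counts were 3, 2, 2 and 2 (SUM159 DMSO, SUM159 ID8, T47D DMSO and T47D ID8), against 17.3%, 17.0%, 19.1% and 19.5%. DKK1 was among them each time, and the counts of the 9 genes are near these shares.

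**Figure D3:**
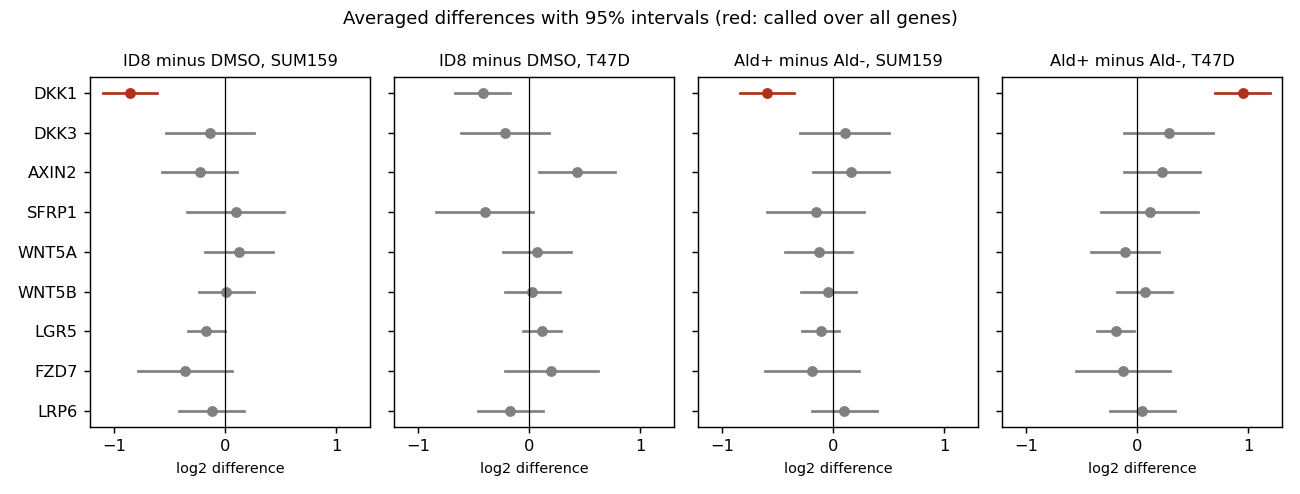
Averaged log2 differences (horizontal axis) of the 9 listed genes (vertical axis) with ID8 and between fractions, by line. Points are estimates of the limma fit and lines their 95% intervals, in red where called over all genes. DKK1 is called in 3 of the 4 panels, at -0.86, -0.60 and 0.95, and the other 8 genes in none. Of all genes, 0.219% to 0.875% were called in these averages.

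The wider pathway was read from lists of 111 genes, of which 107 were measured and 60 had a mean signal of 2 or more. PORCN, FZD8, CSNK1G3 and TCF7 had no probe set naming them alone. DKK1 and CCN4 were the only genes called in the 8 comparisons or the 4 averages. For ID8 averaged over fractions in SUM159, DKK1 was the 1 gene called among 18 inhibitors and among 17 beta-catenin target genes, and 0 were called among 19 Wnt ligands, 15 receptors, 9 genes of the R-spondin module, 25 cytoplasmic transducers and 12 nuclear effectors. With 0.688% of all genes called in that average, 0 calls in lists of this size are near the background. The median difference of the target genes was -0.09, with 3 of 17 above 0, and that of the receptors was 0.05, beside -0.0087 over all genes. The 17 target genes include DKK1 itself, and 8 of them had a mean signal of 2 or more. The share of all genes above 0 was not counted, so the 3 of 17 have no background to be read against. In T47D the same average gave 0 calls in every list, where 0.505% of all genes were called, with a median of 0.04 for the target genes and 0.16 for the receptors, beside -0.0059 over all genes.

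CCN4, a secreted matricellular protein and known beta-catenin target gene, was lower in the Aldefluor+ fraction of SUM159. With DMSO its signal was 2.54, 2.56 and 2.09 in Aldefluor+ cells and 3.22, 3.08 and 3.36 in Aldefluor- cells, a difference that did not pass (-0.82 ± 0.284, limma adjusted p = 0.469). With ID8 it was 1.86, 1.43 and 1.99 against 3.63, 3.78 and 3.56, a difference of -1.90 ± 0.284 (3.73-fold, adjusted p = 0.0132). The average was -1.36 ± 0.201 (adjusted p = 0.00796). In T47D the averaged difference was -0.0013 ± 0.201, and the difference between the lines was -1.36 ± 0.284 (adjusted p = 0.0445). Without experiments 2, 3 and 4 in turn, the ID8 values of CCN4 were -1.96, -1.67 and -2.06 (limma adjusted p = 0.170, 0.311 and 0.127). The averages were -1.43, -1.32 and -1.33 (limma adjusted p = 0.126, 0.156 and 0.143). Each call was thus lost when any 1 experiment was left out, in fits where fewer genes were called in 8 or 9 of 9 contrasts. The difference between the lines was likewise lost without experiment 2, 3, 4, 5 or 7 (-1.43, -1.32, -1.33, -1.33 and -1.06, adjusted p = 0.163, 0.192, 0.162, 0.135 and 0.246).

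**Figure D4:**
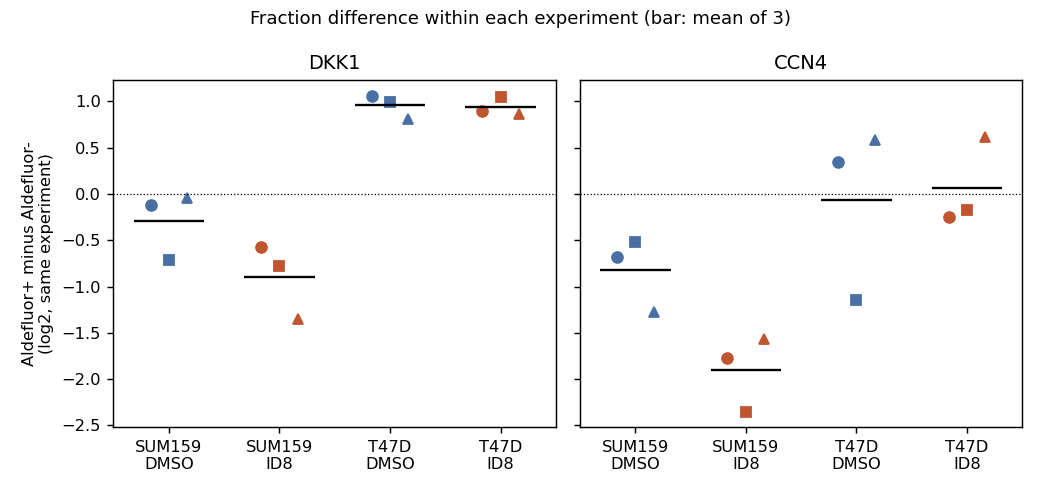
Aldefluor+ minus Aldefluor- log2 signal of DKK1 (left) and CCN4 (right) within each experiment (vertical axis) by line and treatment (horizontal axis). Points are experiments and bars their mean of 3. DKK1 is below 0 in all 6 SUM159 pairs and above 0 in all 6 T47D pairs, and CCN4 is below 0 in all 6 SUM159 pairs and mixed in T47D.

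The genes whose signal ran most like DKK1 were found by Pearson correlation over the 24 arrays after each gene's line mean was removed, among 11417 genes with a mean of 2 or more. The highest were LOXL1, an enzyme that crosslinks elastin and collagen (r = 0.887), ARHGAP18 (r = 0.872), IQGAP1, a cytoskeletal scaffold (r = 0.845), KIF23, a kinesin of cytokinesis (r = 0.839), and KIRREL1, a cell adhesion protein (r = 0.830). LOXL1 differed by -0.72 with ID8 and by -0.51 between fractions in SUM159, and by -0.20 and 0.70 in T47D. These signs match DKK1, but LOXL1 was picked by its correlation with DKK1 on the same arrays, so they are no separate support. The lowest were PPP2R5A (r = -0.841), EDEM1 (r = -0.835), MLF1 (r = -0.835), EIF2A (r = -0.833) and KCNQ5-IT1 (r = -0.827). Among the listed genes, r with DKK1 lay between -0.08 for LGR5 and 0.32 for DKK3. These correlations share arrays, treatments and the batch adjustment, and they are given as a description.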

How the data were processed

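Total RNA of sorted SUM159 and T47D cells was amplified from 10 ng and hybridised to Affymetrix Human Gene ST 2.1 arrays, per the labels' protocols. The deposited values are log2 signals from RMA, which the authors adjusted for experimental and processing batch with ComBat, per the design text and the submitters' processing notes. For RMA, ComBat and limma the version is not given in the sources used here, nor are the batches or covariates of ComBat. The adjustment can shrink differences. Arrays carry no count depth, and 3 arrays per group limit the precision.

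Of 53617 probe sets, 23871 had 1 symbol in the platform annotation, 1842 several and 27904 none. Of those with 1 symbol, 22569 were matched to RefSeq (GRCh38.p14) and took its symbol, whether changed or not. For genes with several probe sets the one with the highest mean was kept, leaving 22395 genes. limma 3.58.1 (R 4.3.3) was fitted to all 24 arrays with 8 group means and experiment as a block within each line, with Benjamini-Hochberg adjustment over all genes and calls at adjusted p under 0.05. The labels state the experiments, which pair the arrays. After group means were removed, the 36 pairs of arrays from 1 experiment correlated at -0.408 to -0.266. Scripts were tested on simulated data.

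The members and lists were chosen with earlier results of these data known. Besides the members, genes of the wider Wnt lists were named when called in the 8 comparisons or 4 averages, and the 5 genes most and 5 least like DKK1 were named. The alternatives were no block, a filter on dim genes, all probe sets, 1 line alone, median centring, another eBayes prior, the mean of a gene's probe sets, and leaving out experiments or 1 array. Promoter sequences came from a RefSeq table.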

Additional observations from a re-analysis of the deposited data

Results flagged for a closer look

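Among the listed genes and CCN4, DKK1 and CCN4 were flagged because their difference between Aldefluor fractions differed between the lines by limma. The averaged Aldefluor difference in SUM159 minus that in T47D was -1.54 for DKK1 (limma adjusted p = 0.000139) and -1.36 for CCN4 (limma adjusted p = 0.0445). In this contrast 0.478% of all genes were called. CCN4 was taken in after its calls between SUM159 fractions, so its test here re-uses those values and is no separate support. The CCN4 call was lost when most experiments were left out in turn. As its compared groups did not overlap, DKK1 was lower in Aldefluor+ cells in 6 of 6 SUM159 pairs and higher in 6 of 6 T47D pairs. CCN4 was lower in 6 of 6 SUM159 pairs and showed no common direction in T47D. The cause of either difference was not tested.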

How the results depend on the processing

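In all, 14 alternatives were fitted, 7 of which left out an experiment or 1 array. DKK1 kept its sign under each alternative in the 8 comparisons and 4 averages. The fit without the replicate block does not count the degrees of freedom that the authors' removal of experiment effects had used. It raised the number of genes called by more than 1.5 times in all 16 contrasts (4 to 700 genes), and the cause was not tested. For the members it added 1 call, DKK1 with ID8 in T47D averaged over fractions (-0.42, adjusted p = 0.0398), and it removed none. Leaving out dim genes raised the count in 9 contrasts (0 to 327 genes) and the trended, robust prior in 11 (0 to 323). Testing all probe sets lowered it in 4 (0 to 203), and 1 line alone lowered it in 8 of 14 (0 to 128). Without experiments 2 to 7 in turn, counts fell in 8 or 9 of 9 contrasts.

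With only the arrays of the line, 0 members were called for ID8 in SUM159 Aldefluor+ cells (DKK1 -1.16, adjusted p = 0.0607), for the SUM159 ID8 fractions (-0.90, adjusted p = 0.169) and for the averaged SUM159 fractions (-0.60, adjusted p = 0.200). With all probe sets, 0 were called for the SUM159 ID8 fractions (-0.90, adjusted p = 0.0891), the T47D DMSO fractions (0.96, adjusted p = 0.0576) and the averaged SUM159 fractions (-0.60, adjusted p = 0.0959). The last also gave 0 with median centring (-0.60, adjusted p = 0.0505) and with the other prior (-0.60, adjusted p = 0.0501). All probe sets also ended the CCN4 call between lines (adjusted p = 0.0910), as did leaving out the SUM159 DMSO Aldefluor+ array of experiment 4 (-1.26, adjusted p = 0.0878). The cause was not tested.

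When experiments or the array were left out, DKK1 ranged from -1.39 to -0.99 for ID8 in SUM159 Aldefluor+ cells (0 to 1 members called), and, with 0 members called in each, from -1.06 to -0.67 for the SUM159 ID8 fractions, from 0.90 to 1.03 and 0.88 to 0.97 for the T47D DMSO and ID8 fractions, and from -0.72 to -0.52 for the averaged SUM159 fractions. It ranged from -0.42 to -0.08 for the SUM159 DMSO fractions. Its ID8 effect by fraction in SUM159 went from -0.88 to -0.26, and that in T47D from -0.057 to 0.055. CCN4 ranged in T47D from -0.40 to 0.47 between DMSO fractions, -0.21 to 0.22 between ID8 fractions and -0.30 to 0.33 on average.

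None of the other 8 members was called in 1304 alternative values, 95 of which had the opposite sign. Among their averages, leaving out experiments gave with ID8 in SUM159 -0.48 to 0.11 for DKK3, -0.11 to 0.34 for SFRP1, -0.10 to 0.27 for WNT5A, -0.031 to 0.085 for WNT5B and -0.32 to 0.034 for LRP6. WNT5B was -0.0012 there with median centring. With ID8 in T47D it gave -0.024 to 0.16 for WNT5A and -0.044 to 0.065 for WNT5B. Between SUM159 fractions it gave -0.020 to 0.29 for DKK3, -0.068 to 0.42 for AXIN2, -0.30 to 0.11 for SFRP1 and -0.098 to 0.036 for WNT5B. Between T47D fractions it gave -0.12 to 0.36 for SFRP1, -0.024 to 0.20 for WNT5B and -0.39 to 0.042 for FZD7. The direction of these averages is therefore not settled by 3 arrays per group.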
